A study of Mus musculus with 7 samples.

Results

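Uncoupling proteins and the genes that give brown fat its identity were compared between brown fat of Gyk knockout (KO) and wild-type mice, 3 days old, male and of the strain C57BL/6J. Gyk encodes glycerol kinase, and the labels do not describe how the allele was made. The 10 genes were Ucp1, Ucp2, Ucp3, Cidea, Dio2, Ppargc1a, Ppargc1b, Prdm16, Adrb3 and Letmd1, taken by name with every probe set paired with them. Of these, 8 genes were measured by 22 of the 45037 probe sets, and 20 of the 22 passed the filter on low signal. Ucp2 and Adrb3 are not analysed here, since the probe table used lists no probe set under either name. The KO group had 4 samples, numbered 1 to 4, and the wild-type group 3, numbered 1, 3 and 4, with 1 array for each. The array values are signal intensities on a linear scale. The labels do not say whether replicates are separate animals, so the p-values below measure the spread between these samples.

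Brown fat burns fuel to make heat. UCP1, in the inner mitochondrial membrane, lets protons return to the matrix without making ATP. UCP2 and UCP3 are related carriers of the same membrane that are found in many tissues or, for UCP3, mainly in skeletal muscle and brown fat. Noradrenaline from sympathetic nerves acts on the beta-3 adrenergic receptor (Adrb3), raises cyclic AMP, and so induces Ucp1, the deiodinase Dio2, which makes active thyroid hormone inside the cell, and the coactivator Ppargc1a. Ppargc1a and its relative Ppargc1b drive the making of mitochondria. PRDM16 directs precursor cells to the brown fat fate, CIDEA is a lipid droplet protein, and LETMD1 is an inner mitochondrial membrane protein needed for heat production in brown fat.

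Dio2 and Ppargc1a are textbook targets of cyclic AMP, and both varied widely between the wild-type arrays. Their promoters are shown beside that of Ucp1. Whether the promoter letters relate to this variation was not tested. The sequences are the 250 bases before the RefSeq start (assembly GRCm38.p6), 5′ to 3′ on the gene's strand. Capitals mark the cyclic AMP response element TGACGTCA, its short form TGACG and the TATA box TATAAA, each searched on both strands. The short form can also lie inside the full element.

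Dio2 (chr12:90739039-90739288, minus strand): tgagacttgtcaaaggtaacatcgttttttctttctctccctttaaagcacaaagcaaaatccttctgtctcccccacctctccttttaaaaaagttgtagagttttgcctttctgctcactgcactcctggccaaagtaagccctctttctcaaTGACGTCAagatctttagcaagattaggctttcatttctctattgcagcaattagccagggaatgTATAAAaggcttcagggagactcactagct
Ppargc1a (chr5:51567726-51567975, minus strand): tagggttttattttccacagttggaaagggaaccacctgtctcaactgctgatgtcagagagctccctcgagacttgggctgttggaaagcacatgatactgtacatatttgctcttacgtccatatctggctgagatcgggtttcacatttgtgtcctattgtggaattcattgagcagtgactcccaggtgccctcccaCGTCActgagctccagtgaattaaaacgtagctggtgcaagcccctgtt
Ucp1 (chr8:83290098-83290347, plus strand): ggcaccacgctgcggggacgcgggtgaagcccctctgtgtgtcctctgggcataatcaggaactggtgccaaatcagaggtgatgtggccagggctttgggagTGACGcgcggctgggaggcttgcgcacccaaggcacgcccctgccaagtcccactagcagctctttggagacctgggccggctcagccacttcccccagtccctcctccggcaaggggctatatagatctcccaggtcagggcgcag

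The Dio2 window held the full element from base -95 to -88 and a TATA box from -30 to -25, counted from the start. The Ppargc1a and Ucp1 windows held 1 short form each, at -49 to -45 on the opposite strand and at -147 to -143. Among all 32851 RefSeq windows of this length, 1.55% held the full element, 17.8% the short form and 12.4% a TATA box. The windows of Ucp3, Letmd1 and Prdm16 held none of these letters. These matches describe the letters only.

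The array labelled KO replicate 2 stood between the genotypes. On the first principal component (35.3% of the variance) it scored -13.8, wild-type arrays -33.3 to -23 and the other KO arrays 33.4 to 35.7, and its closest array was wild-type replicate 1 (r = 0.975). Xist read 2757 on it and 183 to 273 on the others, although every sample is labelled male. Results below are therefore given with and without it. Its log2 signal was nearer to the wild-type mean than to the mean of the other KO arrays in 15 of the 20 tested probe sets of these genes (75%), several of which share a gene, and in 56.7% of all tested probe sets. The sample accession numbers fall into a pair of ranges, here called deposit blocks: block 1 holds wild-type replicate 1 and KO replicates 1 and 2, and block 2 holds the other 4 arrays.

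The tissue carried markers of brown fat on all 7 arrays. Cox8b, a subunit of cytochrome oxidase found in brown fat and muscle, read 26884 to 34130, and Cox7a1 read 15318 to 20486. Elovl3, which lengthens fatty acids, read 730 to 2393. Of 6 general fat cell markers (such as Fabp4, Adipoq and Lpl), 0 passed the test between genotypes, also 0 at an unadjusted p under 0.05 (limma).

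Of the 8 measured genes, 0 passed the test of KO against wild type over all arrays (limma, Benjamini-Hochberg adjusted p under 0.05), where 1.59% of all 27022 tested probe sets did. At an unadjusted p under 0.05 there were 5 of 20 probe sets, against 16.5% of all tested. Their log2 differences were at most 0.65 in size, 10 above and 10 below 0, with a median over the genes' brightest probe sets of 0.02 beside -0.01 for all 13102 genes. Without the array labelled KO replicate 2, 2 of the 8 genes, Letmd1 and Ucp3, fell, each on 2 probe sets. In that comparison 7.35% of all tested probe sets passed, 4.21% being lower in KO. Letmd1 alone passed with quantile normalization, where 1.51% of all tested probe sets did. It alone also passed with array weights (4.86%) and with the deposit block as a covariate (2.34%). Ucp3 alone passed within deposit block 2 (2.69%). Letmd1 and Ucp3 both passed with the replicate number as a block, where 2183 of all 27022 tested probe sets did. KO replicate 2 adds nothing to the difference in that fit.

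**Figure D1:**
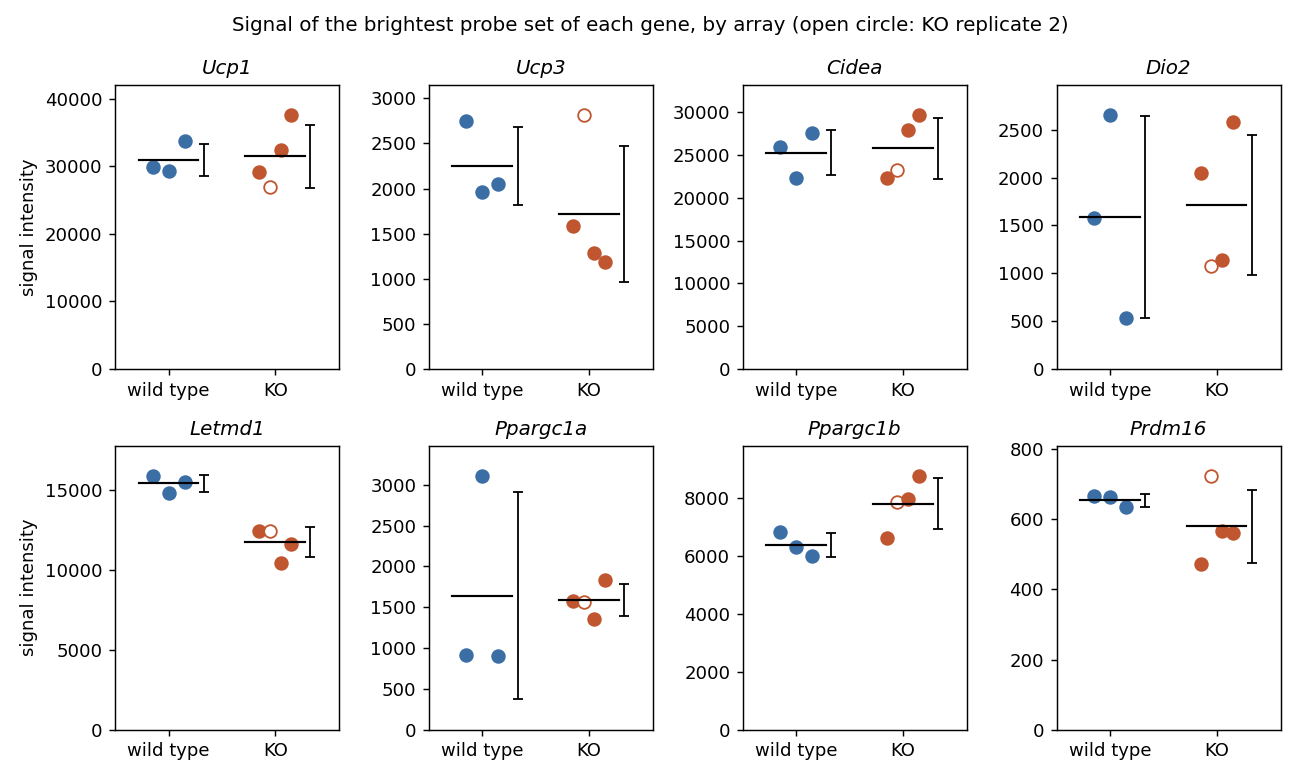
Signal intensity (linear axis from 0) of the brightest probe set of each of the 8 measured genes on every array, with wild type in blue, KO in orange and KO replicate 2 as an open circle; lines are means and bars SD (n = 3 and 4). All 4 KO arrays of Letmd1 (10469 to 12474) lie below all wild-type arrays (14845 to 15887), while Dio2 and Ppargc1a spread widely within wild type.

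Ucp1, the proton carrier of heat production, was measured by 1 probe set (1418197_at). It read 29963, 29264 and 33706 in wild type replicates 1, 3 and 4. The KO arrays read 29168, 26887, 32388 and 37577. The genotypes overlapped fully, with both the lowest array (KO replicate 2) and the highest (KO replicate 4) in KO. The fold of KO over wild type was 1.01 with a 95% interval of 0.837 to 1.22 (adjusted p = 0.971), so the data bound a difference to about this range at signals among the brightest measured, a range in which arrays may flatten differences. Cidea lay as close: 25924, 22358 and 27583 in wild type, and 22275, 23264, 27978 and 29639 in KO (fold 1.02, 95% interval 0.837 to 1.23, adjusted p = 0.955).

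Ucp3, the carrier shared with skeletal muscle, was measured by 2 probe sets. The brighter, 1420657_at, read 2744, 1965 and 2045 in wild type and 1586, 2812, 1290 and 1184 in KO. KO replicate 2 was the highest array of all, and the other 3 KO arrays lay below every wild-type array. With all arrays its log2 difference was -0.45 ± 0.26 (SE, adjusted p = 0.42). Without KO replicate 2 Ucp3 fell 1.64-fold (log2 difference -0.72, adjusted p = 0.0238), from 2251 ± 429 (SD, n = 3) to 1353 ± 208 (n = 3).

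The second Ucp3 probe set, 1420658_at, read 1674, 1483 and 1789 in wild type and 1213, 1566, 1242 and 947 in KO. On this probe set KO replicate 2 lay within the wild-type range, and the other KO arrays lay below it. The difference was -0.42 ± 0.16 with all arrays (adjusted p = 0.217), and 1.45-fold lower without that array (adjusted p = 0.0433). With the deposit block as a covariate the adjusted p-values were 0.131 (1420657_at) and 0.141 (1420658_at). Within block 2 alone they were 0.0371 (1.61-fold lower) and 0.129 (1.49-fold lower). Block 1 holds a single wild-type array and was not tested alone. There wild-type replicate 1 read 2744 on the brighter probe set, KO replicate 1 read 1586 and KO replicate 2 read 2812.

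Ucp3 is also a gene of skeletal muscle, and the summed signal of muscle markers was higher on the arrays of deposit block 1. The summed signal of 21 muscle markers, such as Ckm, Acta1 and Tnnt3, was 61730 to 71959 on the 3 arrays of block 1 and 34199 to 44583 on the 4 arrays of block 2. Within block 2 it was 42243 and 44583 in wild type and 39870 and 34199 in KO, so it was lower in KO there, as was Ucp3. In block 1 the sum was 71959 in wild type, 64656 on KO replicate 1 and 61730 on KO replicate 2. There Ucp3 (1420657_at) read 2744, 1586 and 2812, so KO replicate 2 had the lowest muscle sum and the highest Ucp3 of that block. Of 19 tested muscle markers 0 passed with all arrays and 0 without KO replicate 2 (limma, 1 at an unadjusted p under 0.05 with all arrays). The defining myoblast factor Myf5 read 2.6 to 29.2 and the muscle actin gene Acta1 12665 to 16459. Relative to its level Acta1 thus varied less than the sum, so single markers need not follow the sum. The part of muscle RNA in the Ucp3 values was not tested, and in whole tissue fewer cells of a type cannot be told apart from less RNA per cell.

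**Figure D2:**
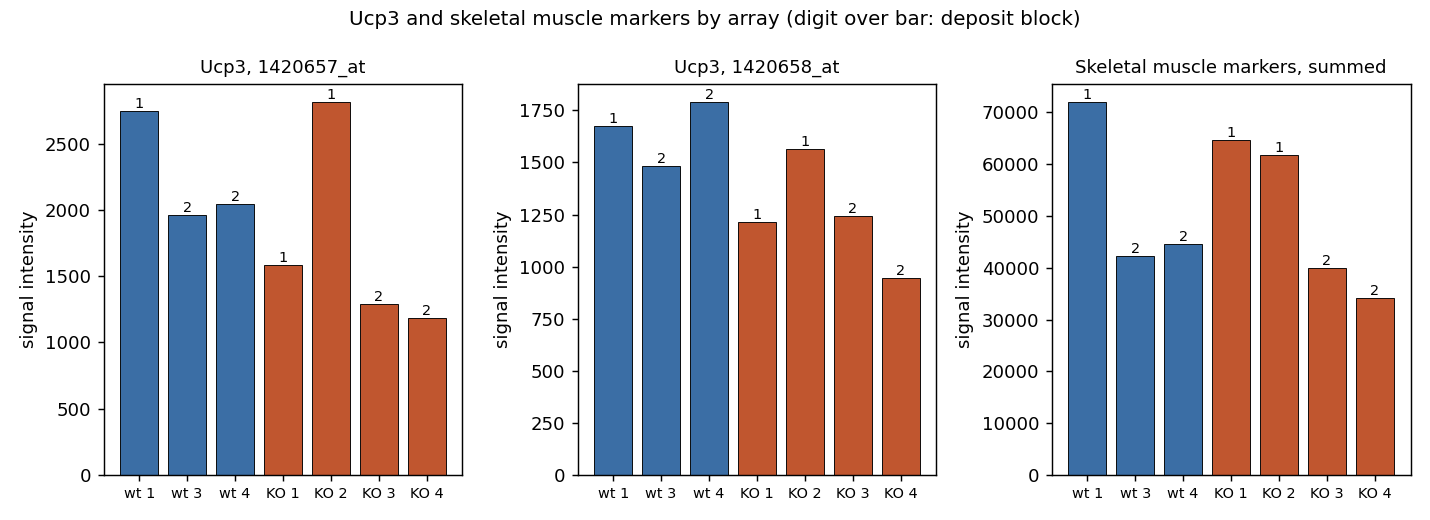
Bars from 0 of the signal intensity of both Ucp3 probe sets and of the summed signal of 21 skeletal muscle markers on each array, wild type (wt) in blue and KO in orange, with the deposit block as a digit over each bar. The muscle marker sum is highest on the 3 arrays of block 1 (61730 to 71959), and KO replicate 2 has the highest value of 1420657_at (2812).

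Letmd1 was the gene whose genotypes lay farthest apart relative to their spread. Its brightest probe set, 1418860_a_at, read 15887, 14845 and 15548 in wild type and 12434, 12474, 10469 and 11618 in KO. Every KO array was lower than every wild-type array, KO replicate 2 included. Of the 20 tested probe sets it was the 1 whose genotypes did not overlap, and among all tested probe sets 14.7% did not. Means were 15430 ± 531 (SD, n = 3) and 11750 ± 940 (n = 4), 1.31-fold lower in KO with a 95% interval of 1.13 to 1.53, which missed the threshold (adjusted p = 0.0746). Its residual SD (0.10 on the log2 scale) was at percentile 5.5 of all tested probe sets.

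The other Letmd1 probe sets lay in the same direction. On 1453091_s_at wild type read 6291, 5452 and 4901 and KO 4023, 5367, 3697 and 3496, with KO replicate 2 inside the wild-type range. Its difference was 1.35-fold (adjusted p = 0.186) and, without that array, 1.47-fold (adjusted p = 0.0189), where 1418860_a_at also passed (1.34-fold, adjusted p = 0.0288). The dimmer 1441021_at (169 ± 65.8 in wild type, 93.5 ± 24.1 in KO) and 1437116_at (129 ± 59.4 and 90.6 ± 20.8) had log2 differences of -0.65 and -0.35 and did not pass with or without it. The remaining probe set, 1429289_at, read 32.3 to 215.3 and was too dim to be tested. Over the alternatives the log2 difference of 1418860_a_at stayed between -0.46 and -0.34, and the adjusted p between 0.0288 and 0.246.

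Dio2, the enzyme that activates thyroid hormone, varied more within wild type than between the genotypes. Its brightest probe set, 1418937_at, read 1581, 2650 and 536 in wild type replicates 1, 3 and 4. In KO it read 2049, 1071, 1140 and 2581. Wild type thus held both the highest and the lowest array, 4.95-fold apart. The residual SD (0.87 on the log2 scale) was at percentile 99.3 of all tested probe sets. The log2 difference of 0.27 ± 0.46 (adjusted p = 0.831) has a 95% interval from 0.598-fold to 2.44-fold, so a change within that range cannot be told from none here. The probe set 1426081_a_at read 791, 1371 and 295 in wild type and 899.9, 476, 560 and 1237 in KO, in the same order of arrays (log2 difference 0.10 ± 0.44, adjusted p = 0.945). The dimmest, 1418938_at, read 427, 776 and 370 in wild type and 533, 353, 389 and 630 in KO (log2 difference -0.10 ± 0.26, adjusted p = 0.9).

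Ppargc1a, the coactivator of mitochondrial genes, showed the same pattern on 5 probe sets. The brightest, 1456395_at, read 916, 3107 and 900 in wild type and 1579, 1564, 1355 and 1835 in KO. Wild-type replicate 3 was the highest array on all 5 Ppargc1a and all 3 Dio2 probe sets, 2.39-fold to 3.45-fold above wild-type replicate 4 for Ppargc1a and 2.1-fold to 4.95-fold for Dio2. The 4 KO arrays lay within 1.35-fold of each other on 1456395_at and within 2.04-fold on 1460336_at, the most variable in KO. The other 4 probe sets averaged 1354 ± 735 in wild type and 1349 ± 182 in KO (1437751_at), 961 ± 739 and 1020 ± 300 (1460336_at), 818 ± 372 and 812 ± 186 (1434100_x_at), and 799 ± 435 and 802 ± 165 (1434099_at). On each of the 5 the SD was thus larger in wild type than in KO. Log2 differences ran from 0.05 to 0.30 (adjusted p 0.776 to 0.95). That of 1456395_at was 0.77 without wild-type replicate 3 (adjusted p = 0.0912), -0.10 without wild-type replicate 4 and -0.09 without wild-type replicate 1, so each wild-type array decides its size or sign. The difference of Dio2 (1418937_at) was 0.77 without wild-type replicate 3 and -0.35 without wild-type replicate 4.

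**Figure D3:**
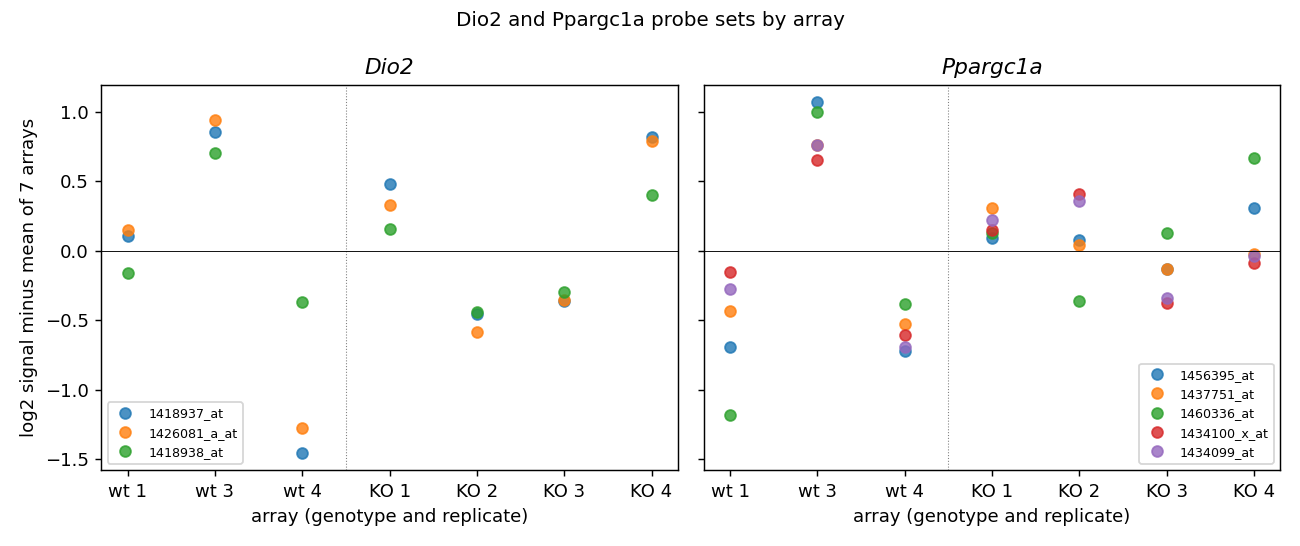
Log2 signal of each tested Dio2 (3) and Ppargc1a (5) probe set on each array, relative to that probe set's mean over the 7 arrays; colours are probe sets, wild type (wt) is left of the dotted line and KO right of it. All 8 probe sets are highest on wild-type replicate 3.

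Ppargc1b, measured by 1 probe set (1449945_at), read 6838, 6319 and 6022 in wild type and 6643, 7865, 7965 and 8771 in KO. All KO arrays but replicate 1 were above wild type. The fold was 1.22 with a 95% interval of 1.02 to 1.45, and it did not pass (adjusted p = 0.241, and 0.208 without KO replicate 2).

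Prdm16, the fate regulator, gave its brightest signal on 1440870_at, with 666, 663 and 633 in wild type and 471, 723, 565 and 560 in KO. Again KO replicate 2 read above all wild-type arrays and the other KO arrays below them. On 1429308_at wild type averaged 452 ± 65.1 and KO 415 ± 57.6, and on 1429309_at 154 ± 15.8 and 118 ± 33.1. The 3 tested probe sets had log2 differences of -0.18, -0.11 and -0.34 (adjusted p 0.519 to 0.791). Without that array they were -0.29, -0.19 and -0.45 (adjusted p 0.234 to 0.554). The fourth, 1440745_at, read 29.1 to 92.8 and was too dim to be tested. In all, 6 of the 20 tested probe sets, of Ucp3, Letmd1 and Prdm16, did not overlap between genotypes once KO replicate 2 was left out, and 27.1% of all tested probe sets did not.

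**Figure D4:**
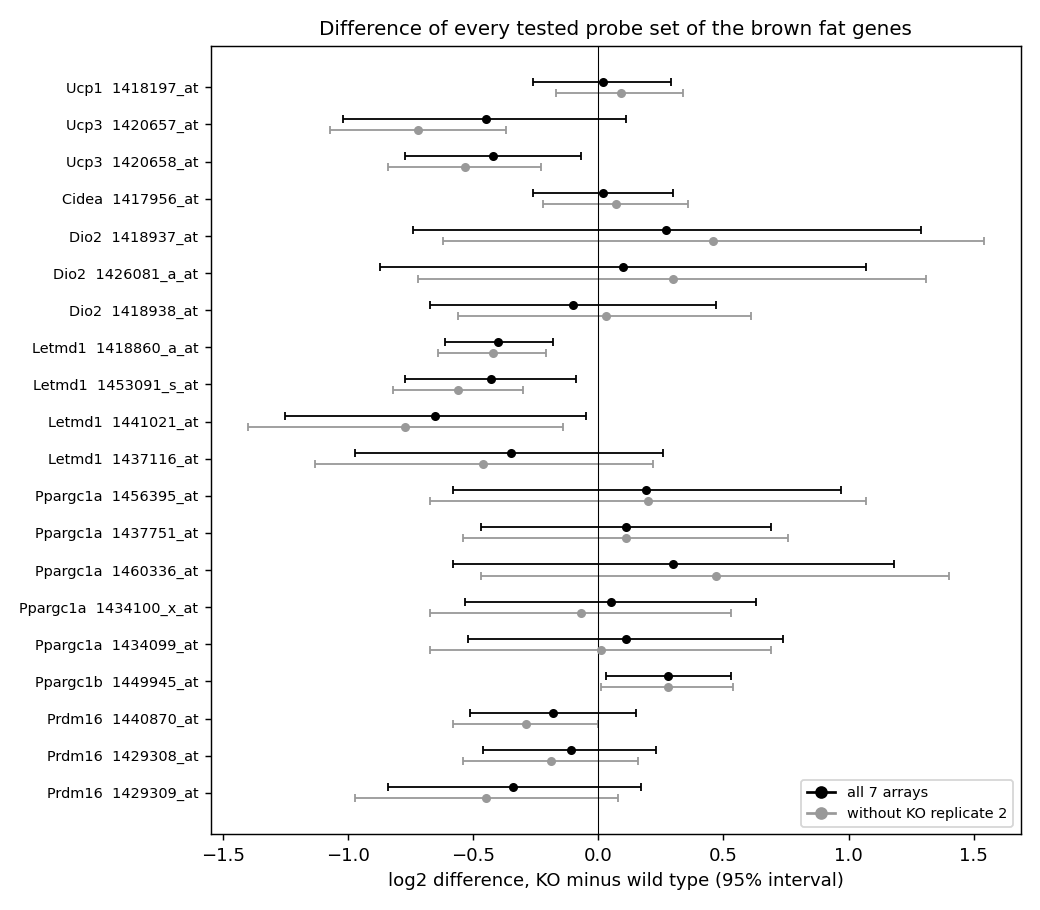
Log2 difference (KO minus wild type) with its 95% interval for each of the 20 tested probe sets, with all 7 arrays in black and without KO replicate 2 in grey. Letmd1 and Ucp3 lie left of 0 on every probe set, Ucp1 and Cidea close to 0 (0.02 each), and the widest intervals belong to 2 Dio2 probe sets (1418937_at and 1426081_a_at).

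Over the 7 arrays the genes did not move as 1 block. Among 28 pairs of brightest probe sets, Ucp1 and Cidea followed each other most closely (Pearson r = 0.87, exact permutation p = 0.00992, adjusted 0.278; Spearman rho = 0.86, exact permutation p = 0.0238, adjusted 0.222; n = 7). Without the 2 arrays farthest from the Ucp1 median r was 0.74. Both genes read at high signal, and the correlations were taken without further scaling. With quantile normalization the SE of the log2 difference was 0.05 for Ucp1 and 0.06 for Cidea, against 0.12 and 0.13 without it. Cox8b, about as bright, was also highest on KO replicate 4 (34130). The part of array-wide shifts at high signal in this r was not tested. For Dio2 and Ppargc1a r was 0.72 (exact permutation p = 0.0647, adjusted 0.439) and rho 0.86 (exact permutation p = 0.0238, adjusted 0.222). Without wild-type replicates 3 and 4 that r was 0.33, so it rests on those arrays. Ucp3 and Prdm16 had r = 0.75 (exact permutation p = 0.0546, adjusted 0.439) and rho = 0.86 (exact permutation p = 0.0238, adjusted 0.222), and r = 0.84 without the 2 arrays farthest from the Ucp3 median. Ucp1 and Ucp3 had negative values (r = -0.70, exact permutation p = 0.0784, adjusted 0.439; rho = -0.57, exact permutation p = 0.2, adjusted 0.7), with r = -0.72 without the 2 farthest arrays. So had Letmd1 and Ppargc1b (r = -0.78, exact permutation p = 0.052, adjusted 0.439; rho = -0.68, exact permutation p = 0.11, adjusted 0.613; r = -0.74 without the 2 farthest arrays), but within genotypes their r was -0.32. For Ucp1 and Dio2 r was 0.01 (exact permutation p = 0.993, adjusted 0.993). Without KO replicate 2, r was 0.88 for Ucp1 and Cidea, 0.76 for Dio2 and Ppargc1a and 0.65 for Ucp3 and Prdm16. The closest pair was then Ucp3 and Letmd1 (r = 0.92). With all arrays that pair had r = 0.68 (exact permutation p = 0.0994, adjusted 0.464), and within genotypes 0.66. Without the 2 arrays farthest from the Ucp3 median its r was 0.21. Without KO replicate 2, r was -0.57 for Ucp1 and Ucp3, -0.78 for Letmd1 and Ppargc1b and -0.17 for Ucp1 and Dio2. The tests were two-sided, and 0 of the 28 pairs passed after adjustment.

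The surrounding pathway was read from gene lists, counting each gene by its brightest probe set unless another is named. By that count 1.83% of all 13102 genes passed. Of all tested probe sets, 0.951% were higher and 0.644% lower in KO, and without KO replicate 2 the shares were 3.14% and 4.21%. At an unadjusted p under 0.05 (limma) the share with all arrays was 16.5%. The median log2 difference over all 13102 genes was -0.01. Of 7 tested carriers related to the uncoupling proteins, 1 rose, with and without KO replicate 2. Slc25a27, also called UCP4 and best known from brain, read 111, 144 and 150 in wild type and 335, 253, 314 and 233 in KO (1.89-fold, adjusted p = 0.0437). It was named because it passed, and its genotypes did not overlap, as on 14.7% of all tested probe sets. Slc25a4, the main ADP/ATP carrier of muscle and heart, was at 13870 ± 1305 in wild type and 11140 ± 1183 in KO and did not pass (adjusted p = 0.19). The list median was -0.03.

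In the path from adrenergic receptors through cyclic AMP, 1 of 21 tested genes fell and 0 rose (median 0.03). Prkar1a, a regulatory subunit that holds protein kinase A inactive, read 5448, 5434 and 5629 in wild type and 3857, 3922, 4237 and 3673 in KO on 1452032_at (1.40-fold lower, adjusted p = 0.0371). Its probe set 1425550_a_at gave -0.03 (adjusted p = 0.932) and the dim 1447635_at 0.59 (adjusted p = 0.382), so its probe sets disagree. Map2k6, a kinase that activates p38, averaged 275 ± 46.8 in wild type and 104 ± 64.6 in KO, with an adjusted p of 0.0911 over all arrays and 0.0109 without KO replicate 2, where 2 genes of the list were higher and 2 lower.

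For thyroid hormone action, 0 of 11 tested genes passed (limma, 3 at an unadjusted p under 0.05; median -0.06), and 1 was higher without KO replicate 2. Of the 11, 8 lay below 0 and 3 above it, Thrap3 and Rxra among the latter. Thrap3, a coactivator-associated protein, was 1.31-fold higher (adjusted p = 0.0812). Rxra, the partner of the thyroid hormone receptor, was 1.40-fold higher (842 ± 86.1 to 1195 ± 120). The adjusted p of Rxra was 0.085, and 0.0256 without KO replicate 2. Among 24 factors that work with PGC-1 coactivators 0 passed (median 0.11). At an unadjusted p under 0.05 (limma) there were 9, against 16.5% of all tested probe sets. Without KO replicate 2, 1 was higher and 1 lower. Esrrg, a nuclear receptor of mitochondrial genes, was at 1306 ± 145 against 908 ± 141 (adjusted p = 0.108) and Yy1 was 1.27-fold higher (adjusted p = 0.139).

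Of 21 tested PRDM16 partners and fate genes 1 rose and 0 fell (median 0.08), against 1 and 2 without KO replicate 2. Cebpd, an early regulator of fat cell formation, rose from 621 ± 40.2 to 1656 ± 502 (adjusted p = 0.0217). Ebf1 rose on 2 probe sets other than its brightest (1439789_at and 1448293_at, 1.54-fold and 1.55-fold). Meox1, a factor of the somites from which brown fat arises, was at 392 ± 30.5 against 168 ± 117 (adjusted p = 0.152).

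Of 35 tested genes enriched in brown over white fat, 2 rose and 2 fell (median -0.11, with 12 above and 23 below 0), against 3 and 5 without KO replicate 2. Fbxo31, an F-box protein of ubiquitin ligases, read 489, 434 and 448 in wild type and 2757, 975, 1712 and 1397 in KO (3.34-fold higher, adjusted p = 0.0217). Dpep1, a membrane dipeptidase, rose 1.75-fold. Acot11, a thioesterase that frees fatty acids from coenzyme A, read 2196, 2091 and 1524 in wild type and 1017, 1312, 669 and 753 in KO (2.07-fold lower, adjusted p = 0.0446). Slc29a1, a nucleoside transporter, fell 1.71-fold, from 1556 ± 180 to 900 ± 102 (adjusted p = 0.0259). On these 4 probe sets, chosen because they passed, the genotypes did not overlap, as on 14.7% of all tested probe sets. On the other probe sets of Fbxo31 (1417969_at, adjusted p = 0.158) and Acot11 (1425667_at, adjusted p = 0.214) they did.

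Of 14 tested white fat genes, 1 rose and 1 fell (median -0.21), against 1 and 5 without KO replicate 2. Igfbp3, which binds insulin-like growth factors, rose 3.94-fold, and Mest, an imprinted gene of fat expansion, fell 3.45-fold. Of 5 tested beige fat markers 0 passed (limma, 2 at an unadjusted p under 0.05; median -0.16), and 1 was lower without KO replicate 2. Hoxc8, a position gene, was 1.97-fold lower (adjusted p = 0.124, and 0.00997 without KO replicate 2), and Slc36a2, an amino acid transporter, 1.25-fold higher (adjusted p = 0.209).

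Among genes that hold down Ucp1 or the brown programme, 0 of 17 tested passed, 13 lying above and 4 below 0 (median 0.22). The median over all genes was -0.01. At an unadjusted p under 0.05 (limma) there were 8 of the 17, against 16.5% of all tested probe sets. Whether these genes moved together was not tested. Without KO replicate 2, 1 was higher and 1 lower. Eif4ebp1, which restrains cap-dependent translation, read 9518, 7984 and 9860 in wild type and 13703, 11715, 12422 and 14324 in KO (1.43-fold higher, adjusted p = 0.0521, and 0.0147 without KO replicate 2). Rbl1, a relative of the retinoblastoma protein, was 1.66-fold lower (adjusted p = 0.118, and 0.0287 without that array).

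Heat can also be made without UCP1, by cycling creatine or calcium. Of 12 tested genes for heat production without UCP1, most of them of these routes, 1 fell and 0 rose (median -0.10). Ckb, the brain-type creatine kinase, read 5215, 3899 and 2645 in wild type and 1066, 1869, 1638 and 915 in KO. All KO arrays were below all wild-type arrays, a 2.83-fold fall (log2 difference -1.50 ± 0.27, SE, adjusted p = 0.0298). Ckb was named because it passed, and on 14.7% of all tested probe sets the genotypes did not overlap. Gamt, which completes creatine synthesis, averaged 458 ± 30.7 in wild type and 248 ± 84.2 in KO (adjusted p = 0.0746, and 0.0057 without KO replicate 2, where 3 genes of the list fell). Atp2a2, the calcium pump SERCA2, fell on 2 of its 5 probe sets (1416551_at, 1.57-fold, adjusted p = 0.0456, and 1427251_at, 1.68-fold, adjusted p = 0.0437), while its brightest, 1427250_at, differed by -0.12 (adjusted p = 0.678).

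Of 10 tested genes for inner membrane and matrix proteins listed beside LETMD1, 0 passed (limma, 2 at an unadjusted p under 0.05; median 0.02). Of the 10, 8 lay above 0 and only 2, Lrpprc and Opa1, below it. Lrpprc, which stabilises mitochondrial transcripts, was 1.36-fold lower (adjusted p = 0.147) and Opa1, which fuses inner membranes, 1.34-fold lower (adjusted p = 0.196). Both passed without KO replicate 2 (adjusted p = 0.0424 and 0.0289).

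**Figure D5:**
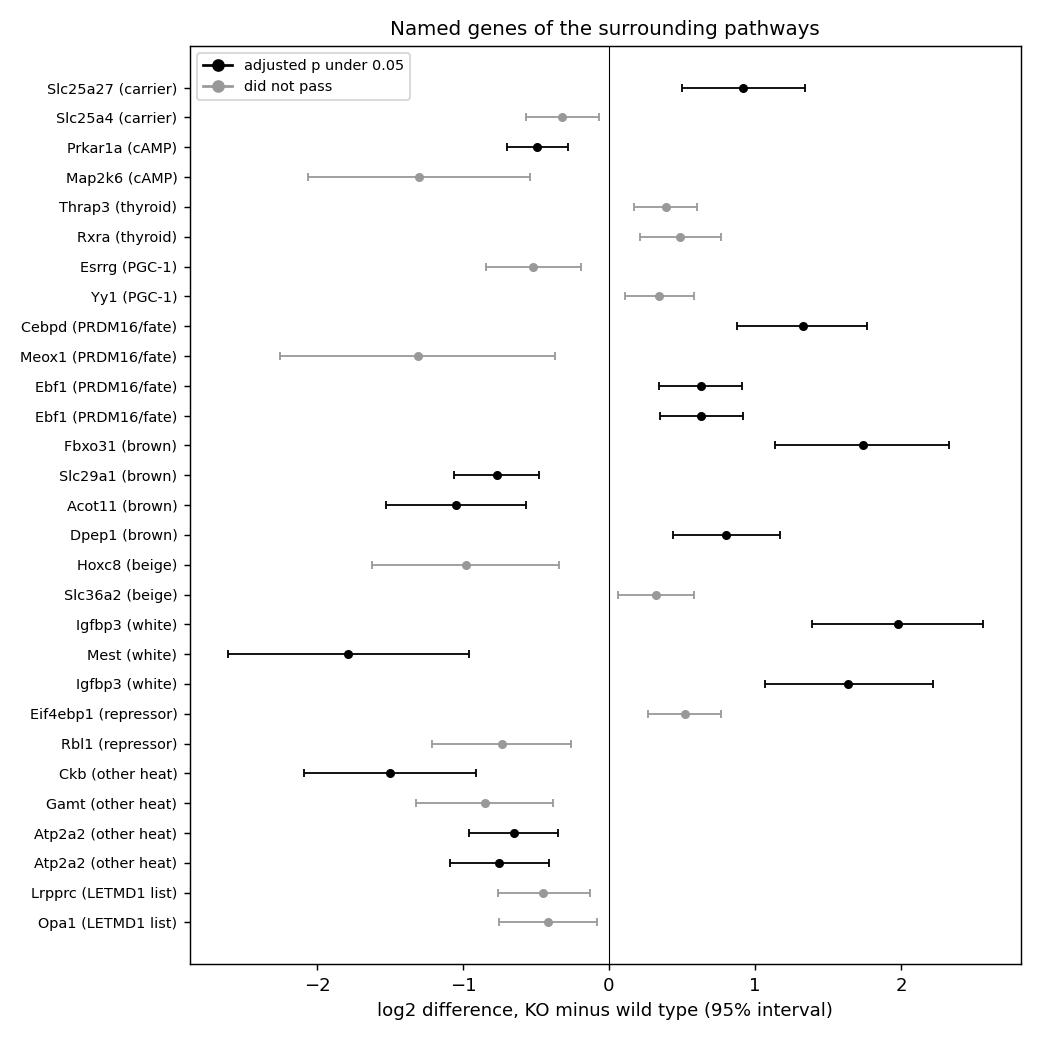
Log2 difference (KO minus wild type) with its 95% interval for the named genes of the surrounding lists, each list in brackets, with all 7 arrays; black points passed at an adjusted p under 0.05 and grey ones did not. The longest shifts are Igfbp3 (1.98) and Fbxo31 (1.74) above 0 and Mest (-1.79) and Ckb (-1.50) below it.

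These calls in the surrounding lists, 15 probe sets of 12 genes, depended on the processing and on which arrays were used. Of the 15, 12 passed with quantile normalization, 9 with median scaling, 11 within deposit block 2, 4 without the filter on low signal and 0 without the mean-variance trend (limma). All 15 passed with either other offset, with array weights and with the deposit block as a covariate. Without KO replicate 2 all 15 passed. Without wild-type replicate 1 or 4, or KO replicate 3 or 4, 0 of the 15 passed (limma). Without wild-type replicate 3 only Igfbp3 did, and without KO replicate 1 Cebpd, Fbxo31 and Igfbp3 did. Fewer probe sets passed overall in those comparisons: 0.0925%, 0.0296% and 0.0259% of all tested without wild-type replicate 1, 3 or 4, and 0.148%, 0.0333% and 0.0555% without KO replicate 1, 3 or 4. None of the 8 brown fat genes passed in these 6 comparisons. At an unadjusted p under 0.05 (limma) there were 7 of their 20 probe sets without wild-type replicate 3. In each of the other comparisons there were 2 to 4. Of all 27022 tested probe sets, 3357 to 3784 had an unadjusted p under 0.05 in these 6 comparisons. With all arrays 4465 (16.5%) did.

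Markers of other cell types were read as sums. The summed signal of 9 fibroblast markers was 71114 to 80789 in wild type, 74655 on KO replicate 2 and 45818 to 68994 on the other KO arrays. All 9 had log2 differences below 0 (median -0.33). Of these 9, 0 passed with all arrays (limma, 3 at an unadjusted p under 0.05) and 3 (Lum, Fap and Dpt) fell without KO replicate 2. Of all tested probe sets 16.5% had an unadjusted p under 0.05 (limma), and 4.21% were lower without that array. That of 7 nerve markers was 1785 to 1994 in wild type and 1413 to 1761 in KO, with the neurofilament gene Nefm at 4.3 to 40.8 and Th, the enzyme of noradrenaline synthesis, at 123 to 199.5. Gap43, a protein of growing axons, fell without KO replicate 2 (adjusted p = 0.00997), and 0.0968 was its adjusted p with all arrays. Macrophage markers (17 genes) summed to 16011 to 17069 in wild type and 13046 to 20840 in KO, endothelial markers (10 genes) to 16510 to 19906 and 16889 to 20025. Lymphocyte markers (6 genes) summed to 924 to 1052 in wild type and 801 to 962 in KO, and red cell markers (5 genes) to 3742 to 5851 and 3823 to 5524. In the macrophage, endothelial, lymphocyte, red cell and nerve lists 16, 10, 3, 3 and 5 genes passed the filter on low signal and were tested. In none of these lists did a gene pass the test with all arrays. At an unadjusted p under 0.05 (limma) there were 2, 3, 0, 0 and 1. Without KO replicate 2, 1 macrophage gene rose, the lysozyme gene Lyz2 (adjusted p = 0.0181, against 0.195 with all arrays). The part of these cells in the differences given above was not tested.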

How the data were processed

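Total RNA of brown fat was taken up in Trizol and, after biotin labelling, each sample was read on 1 array, per the labels' protocols. What the authors deposited is 1 linear signal intensity per probe set and array, and the submitters' processing notes name GCOS 1.2. The sources used here do not state its scaling. The mean after trimming 2% at each end was 496.8 to 497.5 on every array, so the values share a common trimmed mean. Array medians were 131.2 to 153.7, and no further scaling was applied. No detection calls were used.

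Of 45101 probe sets, 64 controls were left out. Of the other 45037, 34945 have 1 gene symbol in the probe table, 932 several and 9160 none, and genes were named from those with 1. Before log2 was taken, 30.6 (the 20th percentile of all signals) was added, so folds, which come from this scale, understate changes of dim probe sets. Probe sets with a mean under the 40th percentile were left out. The 27022 others (13102 genes) were compared by limma 3.58.1 (R 4.3.3), whose eBayes step let the variance follow the mean. Two-sided p-values were adjusted by Benjamini-Hochberg over all of them, with a threshold of 0.05. Intervals are 95% and not adjusted. The number of arrays limits the precision.

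The genes and lists were chosen with earlier results of these data known. Of the 8 measured genes every probe set was used. From each other list, genes that passed on any probe set and the 2 with the smallest p were named, and markers of other cells were summed. Counts of list genes without KO replicate 2 and the correlations between genes were added after seeing the data. The targeted gene was not analysed here, so genotypes rest on the labels.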

Additional observations from a re-analysis of the deposited data

How the results depend on the processing

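Over all tested probe sets 431 passed (59.6% higher in KO), against 236 with median scaling, 100 without the filter, 6 without the mean-variance trend, 1312 with array weights, 2183 with the replicate block, 631 with the deposit block as a covariate, 726 within deposit block 2 and 7 to 1986 when 1 array was left out. The share higher in KO was 48.0% with array weights, 43.0% with the replicate block, 48.3% within deposit block 2, 42.7% without KO replicate 2, 66.9% with median scaling and 75% to 100% of the 7 to 40 calls without any other single array. KO and wild-type replicates 1, 3 and 4 share numbers. The correlations of their deviations from the group means were 0.06, 0.15 and 0.11. Each had to exceed 0.1 in the check used, so the samples were not treated as paired. For each of these KO arrays the value was still higher than with wild-type arrays of other numbers (-0.14 to 0.04). KO replicate 2 gave 0.18 with wild-type replicate 1. Whether the samples are paired thus stays undecided. In the replicate block fit KO replicate 2, whose number no wild-type array shares, adds nothing to the difference.

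Of the 8 genes, 0 passed with all arrays. With quantile normalization 1 did (Letmd1, adjusted p = 0.0372), with array weights 1 (Letmd1, adjusted p = 0.0331), with the deposit block as a covariate 1 (Letmd1, adjusted p = 0.0497), within deposit block 2 alone 1 (Ucp3, adjusted p = 0.0371) and with the replicate block 2 (Letmd1, adjusted p = 0.0312, and Ucp3, adjusted p = 0.00662). Leaving out 1 array gave 0 to 2, the 2 without KO replicate 2. Letmd1, Ucp3, Ppargc1b and Prdm16 kept their direction under all 17 alternatives. The log2 difference of Ucp1 was -0.04 with quantile normalization, 0.15 within deposit block 2 and -0.07 to 0.09 without 1 array, and that of Cidea -0.05, 0.21 and -0.06 to 0.09. That of Dio2 was -0.35 to 0.77 without 1 array. That of Ppargc1a was -0.09 within deposit block 2 and -0.10 to 0.77 without 1 array. The cause of these changes was not tested. Without the filter, more probe sets entered the adjustment. Dim probe sets limit what could be seen of Letmd1 1437116_at and 1441021_at and Prdm16 1429309_at.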
